A study of Mus musculus with 18 samples.

Results

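The livers of Hmgn1-/- male mice injected with saline were compared with the livers of Hmgn1-/- mice that had received no injection and were labelled 4 weeks. Each group had 3 arrays, so 6 of the 18 arrays of the study entered the comparison, with all 45037 probe sets that are not controls out of 45101 on the array. The study also held 3 arrays each of knockout livers after N-nitrosodiethylamine (DEN), which becomes a DNA-alkylating carcinogen in hepatocytes, and of Hmgn1+/+ livers in the same 3 states. All injections were given at 4 weeks of age, DEN at 10 µg per g of body weight, and the labels state the same 10 µg per g for saline. The injected groups are labelled 12 weeks, and the series text counts these weeks from the injection, whereas the titles of the samples leave the starting point open. The comparison therefore joins age and the saline injection, which cannot be told apart in this design.

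All 6 arrays share the Hmgn1-/- genotype, and the knockout and wild-type animals were kept as separate homozygous lines that began from littermates. The strain and the way the gene was disrupted are not given in the labels, which also leave unsaid whether the 3 arrays of a group stand for 3 animals. The p-values therefore measure the spread between these samples, which may be technical. The labels call the injected mice males and give no sex for the uninjected ones. On the 6 arrays the signal of the Y-linked gene Eif2s3y was between 859 and 1101, and that of Xist, the RNA that coats the inactive X chromosome of females, was at most 46.

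Between weaning and adulthood the mouse liver stops growing, comes under the pulsed growth hormone secretion of the adult male and settles its bile acid, amino acid and drug metabolism at adult levels. Growth hormone acts on hepatocytes through JAK2 and STAT5, which induce feedback inhibitors such as Cish. Bile acids are made from cholesterol by a pathway that starts with Cyp7a1, and the many secreted proteins of the liver are folded in the endoplasmic reticulum with the help of chaperones. HMGN1 is a small nucleosome-binding protein that loosens the packing of chromatin.

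Values are log2 of the deposited intensity plus 16 after quantile normalization over the 18 arrays, so a value of 4 stands for an intensity of 0. A change is the saline mean minus the 4-week mean on this scale, which understates the change of dim genes, and a change of 1 is a 2-fold difference. "Rose" and "fell" are used for adjusted p-values under 0.05 from limma, with Benjamini-Hochberg adjustment across all 27022 probe sets tested, and such probe sets are referred to as called. A gene is represented by its tested probe set of highest mean.

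The saline arrays stood apart from the 4-week arrays before any liver gene was considered. The brightest probe set reached 18609 to 20745 on the saline arrays, and 48393 to 59876 on the 4-week arrays. The BioB control, bacterial RNA added to each hybridization mix, read 41.7 to 47.3 against 356 to 449.8, and the log2 difference of the other 7 added controls was -2.97 to -2.45. The ratio of the 3' to the 5' probe set of Gapdh, a measure of RNA integrity and labelling, was 1.21 to 1.41 on the saline arrays and 1.35 to 1.7 on the 4-week arrays, of which 4-week replicate 1 had the highest. For Actb the same ratio was 2.721 to 3.497 on the saline arrays and 3.996 to 5.046 on the 4-week arrays, without overlap. This array difference runs with the groups and cannot be told apart from them. All arrays had the profile of liver: the intensity of Alb ranged from 15056 to 40955 and that of the hepatocyte factor Hnf4a from 3853 to 5955, while the bile duct keratins Krt19 and Krt7 were at most 25.1 and 25.9 and the T cell gene Cd3e at most 16.5.

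Of the 27022 tested probe sets, 1946 were called (7.2%), of which 1059 rose (3.92%) and 887 fell (3.28%). Counted by gene, 1071 of 12900 were called (8.3%), with 554 higher (4.29%) and 517 lower (4.01%). Most changes were small: 172 probe sets (0.637%) were called with a change of 1 or more. With the deposited values, which keep the compressed range of the saline arrays, 1376 rose and 1309 fell, and with each array centred on its median 664 rose and 2054 fell. On both the quantile-normalized and the deposited scale, 1707 of 26984 probe sets tested on both were called in the same direction (6.33%), and genes were chosen for description from the 6.62% of genes that also met the conditions on overlap and level. In 30.3% of the tested probe sets the groups of 3 did not overlap, whether or not they were called. Since the choice of genes required it, a lack of overlap stated below for a gene so chosen adds nothing to its call. Without 4-week replicate 1 the count of calls was 910, and without saline replicate 2 it was 931. Without saline replicate 1 it was 1234, and without saline replicate 3 it was 1141.

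Cish, Hhex and Cyp7a1 were among the 15 largest rises. Cish encodes a feedback inhibitor of growth hormone receptor signalling, and its values were 6.21, 6.01 and 6.44 on the 4-week arrays and 7.36, 7.70 and 7.86 on the saline arrays. The groups did not overlap, which the choice of genes required. The change was 1.42 with a standard error (SE) of 0.26 (limma adjusted p = 0.0017), a 2.67-fold rise. On the knockout DEN arrays, which share the range of the 4-week arrays, its values were 8.02, 8.44 and 8.72, above all 4-week arrays as well. In the wild type Cish rose by 1.04. Over all probe sets, 8.22% were called between knockout DEN and 4 weeks and 10.9% between knockout saline and DEN.

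Hhex, a homeobox factor needed for liver bud formation and kept in adult hepatocytes, had values of 8.72, 8.65 and 8.72 at 4 weeks and 9.68, 9.94 and 10.11 after saline. All 3 saline arrays lay above all 4-week arrays, with a change of 1.22 with an SE of 0.17 (adjusted p = 0.000171). Its values on the knockout DEN arrays were 10.11, 9.95 and 10.52, and saline and DEN differed by -0.28 (adjusted p = 0.328). In the wild type the values were 10.31, 10.10 and 10.35 at 4 weeks and 10.34, 10.92 and 10.64 after saline, a change of 0.38 that did not pass the test (adjusted p = 0.232). The knockout at 4 weeks was the low group of the 4, and the difference of the change between genotypes was 0.84 (adjusted p = 1).

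Cyp7a1, which catalyses the first and limiting step from cholesterol to bile acids, read 7.92, 7.67 and 7.75 on the 4-week arrays and 9.03, 9.06 and 8.81 on the saline arrays of the knockout. The groups were well apart, and the change was 1.19 with an SE of 0.23 (adjusted p = 0.0033), a 2.28-fold rise. The wild-type arrays read 10.43, 10.11 and 10.31 at 4 weeks and 9.71, 9.85 and 10.10 after saline, so all knockout arrays of both groups lay below all of these. The wild-type change was -0.39 (adjusted p = 0.406), and the difference between the genotypes' changes, 1.58 with SE 0.33, did not pass the test (adjusted p = 0.839). On the knockout DEN arrays Cyp7a1 read 9.58, 10.12 and 9.17. A second, dimmer Cyp7a1 probe set changed by 0.53 in the knockout and was not called (adjusted p = 0.423).

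**Figure D1:**
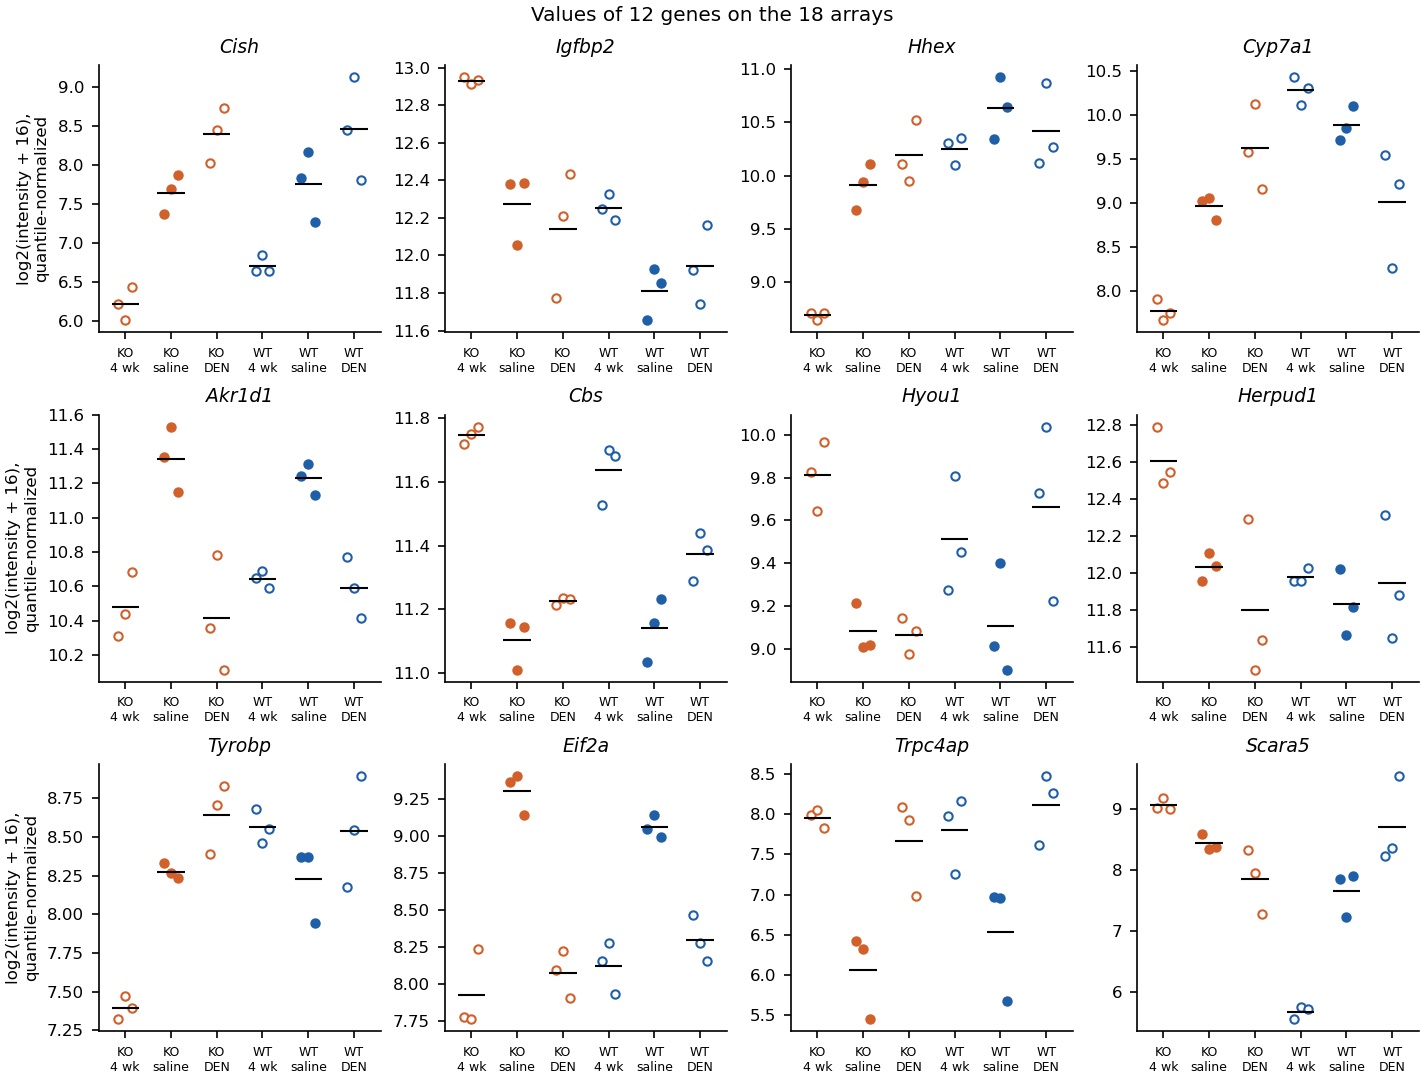
Values of 12 genes on each of the 18 arrays, as quantile-normalized log2(intensity + 16), by group; orange is knockout, blue wild type, filled points are the saline arrays, and bars are group means of 3 arrays. In the 4-week knockout column Cyp7a1, Hhex and Tyrobp are lowest of all groups, and Scara5 is low in the 4-week wild type, at 5.55, 5.75 and 5.72.

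Of 25 measured genes of bile acid synthesis and transport, 3 rose and 1 fell (16%, against 8.3% of all genes). The median change was 0.06, against 0.01 over all genes. The list's median was -0.22 with deposited values and -0.34 with centred medians, and 8 and 11 of its genes fell on those scales. Akr1d1, which reduces the steroid ring in bile acid synthesis, had values of 10.31, 10.44 and 10.68 at 4 weeks and 11.36, 11.53 and 11.15 after saline, with no overlap, and rose by 0.87 with an SE of 0.14 (adjusted p = 0.000446). It also rose in the wild type, by 0.59, and its knockout DEN values, 10.36, 10.78 and 10.12, covered the 4-week range, with a saline minus DEN difference of 0.93 (adjusted p = 0.000206). The other rise was that of Abcc2, a canalicular exporter, by 0.46; it was picked after its value was seen, and its adjusted p was 0.156 without 4-week replicate 1. A second Akr1d1 probe set changed by 0.20 (adjusted p = 0.326). Fgfr4, the receptor through which intestinal FGF15 lowers bile acid synthesis, fell by 0.46, but its adjusted p was 0.0651 without 4-week replicate 1 and 0.0576 without saline replicate 2. Nr0b2, a repressor of Cyp7a1 transcription, changed by -0.68 and was not called (adjusted p = 0.114).

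In the growth hormone and IGF axis 1 of 21 measured genes rose and 2 fell (14.3%, against 8.3% of all genes). The list's median of 0.12 turned to -0.09 with centred medians. Igfbp2, an IGF-binding protein that growth hormone lowers, had values of 12.95, 12.91 and 12.93 at 4 weeks and 12.38, 12.06 and 12.39 after saline. The groups did not overlap, and Igfbp2 fell by 0.66 (SE 0.13, adjusted p = 0.00329). The knockout DEN arrays, at 11.77, 12.21 and 12.44, were low too. Igfbp4, another carrier of IGFs, fell by 0.41 (adjusted p = 0.00662), and each of its 5 other tested probe sets had a negative change, from -0.53 to -0.30, of which 3 were called. Igf1 and the growth hormone receptor Ghr were not called (adjusted p = 1 and 0.156). The calls of Cish, Igfbp2, Igfbp4, Hhex, Cyp7a1 and Akr1d1 held without each of the 6 arrays in turn, but that of Igfbp4 ended without the intensity trend (adjusted p = 0.0536).

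Among the hepatocyte transcription factors (21.7% called, against 8.3% of all genes) Hhex was the 1 of 23 that rose, and 4 fell by small amounts. These were nuclear receptors or their partner: Nr1i2, the drug-sensing receptor PXR, by 0.47; Nr2f6 by 0.45; the oxysterol receptor Nr1h3 by 0.34; and Rxra, the common partner of such receptors, by 0.29. Rxra was picked after its value was seen, and its call was lost without any 1 of the 6 arrays, with adjusted p-values from 0.0901 to 0.156. Between 1 and 2 of the 4 falls were called when an array was left out: Nr1i2 had an adjusted p of 0.0687 and Nr2f6 of 0.133 without 4-week replicate 1, and Nr1h3 of 0.11 without 4-week replicate 2. The list's median was -0.08, and it was 0.0024 in the wild type.

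The chaperones and stress factors of the endoplasmic reticulum that were called all fell. None of 26 measured genes on the list rose and 6 fell, where 4.01% of all genes fell. Of the 26 changes 20 were negative, with a median of -0.24. The 26 include Selenbp1, at 0.08 and not called, which is neither a chaperone nor a stress factor of this compartment. The median stayed negative under every scaling tried, at -0.33 with deposited values, -0.45 with centred medians and -0.20 after cyclic loess. It was 0.08 in the wild type, where 1 gene rose and 0 fell (3.56% and 2.6% of all genes), and -0.21 on the knockout DEN arrays against the same 4-week arrays. No gene of the list passed the test of the difference between the genotypes' changes.

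Hyou1, a large chaperone of the HSP70 family in the endoplasmic reticulum, had values of 9.83, 9.65 and 9.97 at 4 weeks and 9.21, 9.01 and 9.02 after saline. The groups did not overlap, and the fall was 0.73 (SE 0.17, adjusted p = 0.00964); it was called without each of the 6 arrays in turn. The knockout DEN arrays read 9.14, 8.97 and 9.08, within the range of the saline arrays or close to it. The other tested probe sets of Hyou1, both dimmer, changed by -0.36 and -0.19 and were not called (adjusted p = 0.343 and 0.766). Herpud1, which takes part in the degradation of misfolded proteins, fell by 0.57, the HSP40 co-chaperones Dnajb11 and Dnajb9 by 0.52 and 0.38, the disulfide isomerase Pdia6 by 0.43, and Xbp1, the transcription factor that induces many of these genes, by 0.32. Of the other Xbp1 probe sets, none called, a bright pair changed by 0.16 and 0.19 and a dim one by -0.42, and the second of the pair was called higher in the wild type, at 0.63 (adjusted p = 0.0127). Apart from that of Hyou1, each of these calls was lost when 1 or another of the arrays was left out. That of Herpud1 was lost without any 1 of the 6 arrays, with adjusted p-values from 0.0515 to 0.164, and that of Xbp1 without 5 of the 6. Without 4-week replicate 1 the adjusted p was 0.0858 for Dnajb11, 0.136 for Pdia6 and 0.0822 for Xbp1, and that of Dnajb9, which was picked after its value was seen, reached 0.0631 without saline replicate 3. Leaving out any 1 array left 2 to 4 of the 6 called. When each gene was averaged over its tested probe sets 2 were called, and without the intensity trend 1. Hspa5, the main HSP70 of this compartment, changed by -0.37 (adjusted p = 0.0709), and Hsp90b1 by 0.40 (adjusted p = 0.0776).

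The endoplasmic reticulum stress element, CCAAT and CCACG with 9 bases of any kind between them, read on either strand, is bound by ATF6 with NF-Y, and it was looked for in the 250 bases before the start of each gene (RefSeq, build GRCm38). It occurred in 37 of 32851 windows (0.113%). Of the 23 listed genes that have a window 8 held it (34.8%), and of the 5 that fell and have one, 1 did. Selenbp1, named above, is among the 23 and did not hold it. No window was found for Hyou1, which fell. The window of Herpud1, which fell too, ended with all but the last base of a match, so the count depends on where the windows end. The windows of Pdia6, which fell and holds a match, of Hsp90b1, which holds 2 and was not called, and of Dnajb11, which fell and holds none, are shown because they set the element beside the change; capitals mark the matches. A match describes these letters alone, and binding was not measured. The windows lie at chr12:17266339-17266588 (plus strand), chr10:86705445-86705694 (minus strand) and chr16:22857595-22857844 (plus strand).
Pdia6: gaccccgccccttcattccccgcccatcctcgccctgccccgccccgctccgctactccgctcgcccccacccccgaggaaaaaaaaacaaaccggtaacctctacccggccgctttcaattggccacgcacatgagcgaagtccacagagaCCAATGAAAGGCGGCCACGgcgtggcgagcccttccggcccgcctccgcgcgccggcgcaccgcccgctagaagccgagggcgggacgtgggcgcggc
Hsp90b1: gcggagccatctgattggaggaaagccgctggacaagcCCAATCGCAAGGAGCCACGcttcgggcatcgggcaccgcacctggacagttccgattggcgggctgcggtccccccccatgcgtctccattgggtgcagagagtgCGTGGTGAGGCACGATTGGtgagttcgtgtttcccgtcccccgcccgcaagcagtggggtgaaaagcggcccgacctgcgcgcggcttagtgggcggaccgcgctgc
Dnajb11: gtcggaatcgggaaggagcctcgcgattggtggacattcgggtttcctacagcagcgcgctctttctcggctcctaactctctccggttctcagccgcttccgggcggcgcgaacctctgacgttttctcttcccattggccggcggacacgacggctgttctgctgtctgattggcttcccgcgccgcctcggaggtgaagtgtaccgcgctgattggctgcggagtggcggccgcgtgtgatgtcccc

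Several enzymes of nitrogen and amino acid metabolism fell. Of 31 measured genes 5 fell and 0 rose (16.1%, against 8.3% of all genes called and 4.01% that fell). Of the changes 23 were negative, with a median of -0.14. Cbs, which condenses homocysteine with serine, had values of 11.72, 11.75 and 11.77 at 4 weeks and 11.16, 11.01 and 11.14 after saline, a fall of 0.64 (SE 0.07, adjusted p = 1.56e-05) with no overlap, and its second probe set also fell, by 0.94 (adjusted p = 3.3e-05). Nags makes the activator of carbamoyl phosphate synthesis, the first step of the urea cycle, and fell from 9.20, 9.14 and 9.26 to 8.52, 8.50 and 8.53, by 0.68 (adjusted p = 0.000271). Uroc1, of histidine breakdown, fell by 0.60 (its dimmer probe set changed by -0.10), Mat1a, which makes S-adenosylmethionine, by 0.33, and Bckdha, of branched-chain amino acid breakdown, by 0.36, the last with an adjusted p of 0.145 without 4-week replicate 1; Mat1a was picked after its value was seen. Cbs, Nags and Uroc1 fell in the wild type too, by 0.50, 0.49 and 0.45. On the knockout DEN arrays the change from 4 weeks was -0.52 for Cbs and -0.50 for Uroc1 but -0.02 for Nags, and Nags was lower after saline than after DEN by 0.66 (adjusted p = 0.000282). With deposited values 18 of the 31 fell.

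Among secreted liver proteins the count of falls depended on the scale. Of 29 measured plasma proteins 1 rose and 5 fell on the quantile-normalized scale (20.7%, against 8.3% of all genes), with a median of -0.10. With deposited values 23 fell, with a median of -0.85. Serpina6, the carrier of corticosteroids, fell by 0.48 and Fetub, a fetuin, by 0.39, both with calls that held without each array in turn. Of 33 measured coagulation and complement genes 1 rose and 4 fell (15.2%), and 20 fell with deposited values. Among the 4 were Proc, the anticoagulant protein C, by 0.48 (adjusted p = 0.00064) and F12, a clotting factor, by 0.40 (adjusted p = 0.00187). The other falls were those of the complement protease C1s1, by 0.30, and the plasmin inhibitor Serpinf2, by 0.21. They were lost without 3 and 5 of the 6 arrays, with adjusted p-values of 0.0833 without 4-week replicate 1 for C1s1 and 0.158 without saline replicate 2 for Serpinf2. The plasma protein that rose, Apoa1, the main protein of high-density lipoprotein, changed by 0.22 (adjusted p = 0.0476) on the quantile-normalized scale and by -1.02 with deposited values, so its direction turns with the scale; it was picked after its value was seen, and its adjusted p was 0.277 without saline replicate 3. Proc read 12.43, 12.34 and 12.24 at 4 weeks and 11.92, 11.70 and 11.94 after saline, and fell in the wild type by 0.38.

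Of 22 measured acute phase genes 4 fell and 1 rose (22.7%, against 8.3% of all genes). Cd14, a co-receptor for bacterial lipopolysaccharide, rose by 1.09 (adjusted p = 0.0118) from a dim level of 4.58, 5.70 and 5.30 to 6.16, 6.38 and 6.30; it was picked after its value was seen, and its adjusted p was 0.0914 without 4-week replicate 1. The falls of Stat3, Serpina3n, Lbp and Hp lay between 0.23 and 0.49, and without 4-week replicate 1 or saline replicate 2 none of the 4 was called, with adjusted p-values of 0.107 and 0.148 for Stat3. Among 30 measured cytochrome P450 genes 2 rose and 3 fell with quantile-normalized values (16.7%), and 17 fell with deposited values. Cyp4f14, a fatty acid hydroxylase, rose by 0.41, with an adjusted p of 0.0517 without 4-week replicate 1, and so did Cyp3a13, by 0.35, which was picked after its value was seen and had an adjusted p of 0.0877 without that array. The falls were those of Cyp26a1, which degrades retinoic acid, by 0.52, of Cyp2c70 by 0.35 and of Cyp2f2, a periportal enzyme, by 0.23; without saline replicate 2 their adjusted p-values were 0.0904, 0.147 and 0.213.

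**Figure D2:**
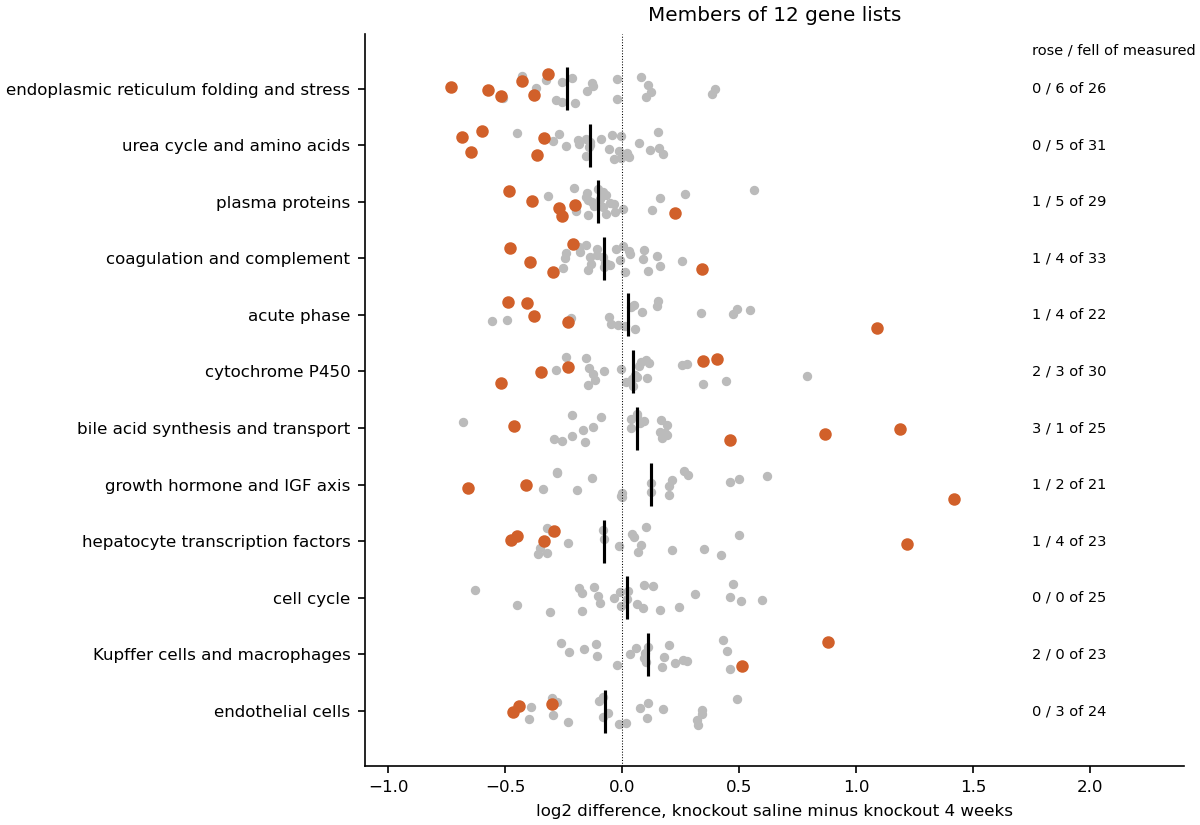
Change of each measured member of 12 gene lists, saline minus 4 weeks in the knockout, on the log2 scale; orange points are called genes, grey points are not called, vertical bars are list medians, and the counts at the right give members that rose and fell of those measured. The endoplasmic reticulum list has 6 called falls and 0 rises of 26, and the cell cycle list 0 calls of 25.

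Of 23 measured Kupffer cell and macrophage genes 2 rose and 0 fell (8.7%, against 8.3% of all genes), with a summed intensity of 10492 to 10556 on the 4-week arrays and 11417 to 12946 on the saline arrays, and the wild-type groups read 13284 to 14291 and 12573 to 14649.5. In bulk RNA, fewer cells of a type and less RNA per cell cannot be told apart. Tyrobp, the signalling adaptor of many myeloid receptors, had values of 7.32, 7.47 and 7.39 at 4 weeks and 8.33, 8.27 and 8.23 after saline, well apart, and rose by 0.88 with an SE of 0.15 (adjusted p = 0.00124), also without each array in turn. The other, the complement gene C1qb, rose by 0.51, but its adjusted p was 0.235 without 4-week replicate 1, and its 2 other probe sets changed by 0.19 and 0.13 without passing the test. The defining Kupffer cell genes Clec4f and Vsig4 and the macrophage genes Adgre1 and Cd68 were not called. On the knockout DEN arrays against the same 4-week arrays 13 of the 23 genes rose, where 4.74% of all genes did and 8.95% were called in either direction.

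Of 24 measured endothelial genes 3 fell and 0 rose (12.5%, against 8.3% of all genes). These were the VEGF receptor Kdr, by 0.46, the fenestral diaphragm gene Plvap, by 0.44, and the phosphatase Ptprb, by 0.30. Without 4-week replicate 1 or saline replicate 2 none of the 3 was called (adjusted p of 0.0693 and 0.0854 for Kdr), and the sinusoidal genes Stab2 and Clec4g were not called. Of 35 measured stellate cell and matrix genes 5.71% were called. Colec11, a collectin, rose by 0.73 (adjusted p = 6.43e-05), and its other, dim probe set changed by -0.10. Ecm1 fell by 0.36, a call lost without each array but saline replicate 1 (adjusted p = 0.125 without saline replicate 3). Alas2, the haem synthesis enzyme of red cell precursors, was the 1 of 9 measured erythroid genes called and fell by 0.70 (adjusted p = 0.000331). Of 9 measured genes of the bile duct list Krt8 and Krt18 (22.2%) fell by 0.34 and 0.39; both are also keratins of hepatocytes, and the adjusted p of Krt8 was 0.0607 without 4-week replicate 1. The summed intensity of the 9 bile duct genes was 4902 to 5266 at 4 weeks and 3754 to 4103 after saline. Most of this sum came from Krt8 and Krt18, at means of 11.25 and 10.91 over all arrays. Krt19 and Krt7 were too dim to be tested, so the sum does not measure bile duct cells.

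Several lists had no call by limma, where 8.3% of all genes were called. At that share few calls would fall on lists of this length, so 0 calls does not show that their genes were unchanged. None of 25 measured cell cycle genes was called, with a median of 0.02 that turned negative with centred medians, and Mki67 and Top2a changed by -0.01 and 0.09. None of 14 genes high in fetal liver was called, Afp included, at a change of 0.42, and none of 13 imprinted growth genes, 19 genes of cholesterol synthesis, 18 clock genes, 17 p53 targets or 9 genes of metallothioneins and zinc transport. The changes of these last 9 genes were all negative, with a median of -0.16. Among male-biased liver genes 1 of 13 was called, Mup3, a major urinary protein, which fell by 0.60 (adjusted p = 0.00147). Its values were 14.53, 14.08 and 14.42 and 13.67, 13.86 and 13.71, and the Mup genes are near-identical copies whose probes may hold the RNA of several. A second, dim Mup3 probe set changed by 0.78 (adjusted p = 0.0541), and 5 male-biased genes fell with deposited values and 8 with centred medians. Among female-biased genes Tox was the 1 of 18 called and rose by 0.96, with an adjusted p of 0.189 without saline replicate 2.

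Of 39 measured genes of oxidative phosphorylation 3 rose and 2 fell (12.8%, against 8.3% of all genes). Sdhc, a membrane subunit of complex II, read 10.44, 10.37 and 10.25 at 4 weeks and 9.70, 9.69 and 9.60 after saline and fell by 0.69 (adjusted p = 1.56e-05), and Uqcrfs1, the iron-sulfur subunit of complex III, read 11.53, 11.56 and 11.59 and 12.09, 12.03 and 12.08 and rose by 0.51 (adjusted p = 5.16e-05). The groups did not overlap in either gene, both calls held without each array in turn, and both genes moved the same way in the wild type, by -0.50 and 0.28. A dimmer Sdhc probe set changed by 0.33 (adjusted p = 0.32). With centred medians the Uqcrfs1 change was 0.18 and not called (adjusted p = 0.287). With deposited values 16 genes of this list fell, and with centred medians 22.

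Gulo, the enzyme of vitamin C synthesis that primates have lost, was the 1 of 19 measured pericentral genes called and fell by 0.49 (adjusted p = 0.000965), whereas 8 genes of the list fell with deposited values and 13 with centred medians. Sesn1, a stress-induced inhibitor of mTORC1, was the 1 of 20 genes of glucose and insulin response called, and rose by 0.97 (adjusted p = 0.000647), with 1.09 in the wild type and -0.04 on the knockout DEN arrays. Its other probe sets changed by -0.04 and 0.25 and were not called (adjusted p = 0.914 and 0.454), and 5 genes of its list fell with deposited values and 7 with centred medians. Mlxipl, the glucose-sensing transcription factor ChREBP, was the 1 of 21 genes of fatty acid synthesis called and fell by 0.46, with an adjusted p of 0.147 without saline replicate 2. Chordc1, an HSP90 co-chaperone, fell by 0.59 (adjusted p = 0.00423). Of 34 genes of glutathione and phase II metabolism 5.88% were called, against 8.3% of all genes. Ugt2a3, a glucuronosyltransferase, and Gclc, of glutathione synthesis, fell by 0.35 and 0.34. Without saline replicate 2 their adjusted p-values were 0.0754 and 0.197. On the deposited scale 13 genes of this list fell, and 15 with centred medians.

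Of 30 measured interferon response genes 3 rose and 2 fell (16.7%, against 8.3% of all genes). When an array was left out, 0 to 2 rises and 0 to 1 falls remained. Usp18, an inhibitor of interferon signalling, rose by 0.64, with an adjusted p of 0.0757 without 4-week replicate 1. H2-K1, a class I antigen-presenting molecule, fell by 0.20, a call that was lost without any 1 of the 6 arrays. Another H2-K1 probe set rose by 1.05 (adjusted p = 0.00734) and a further pair was not called (adjusted p = 0.967 and 0.988), so the probe sets of H2-K1 disagree. Of 28 measured cytoskeleton genes 4 fell and 0 rose (14.3%): Krt8 and Krt18, given above, S100a10, a partner of annexin 2, by 0.72 and the actin-severing Cfl1 by 0.32, with adjusted p-values of 0.0792 without saline replicate 3 for S100a10 and 0.0963 without saline replicate 2 for Cfl1. Another bright S100a10 probe set changed by 0.05 (adjusted p = 0.85), and a dimmer one of Cfl1 fell by 0.55 (adjusted p = 0.0337). Between 1 and 4 of the 4 falls were called when an array was left out. Over all 42 lists 84 of 820 measured genes were called, against 8.3% of all genes.

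Hectd2os, a long noncoding RNA, had the largest rise among the genes that met the rule, with values of 7.71, 8.08 and 8.18 at 4 weeks and 9.81, 9.91 and 9.37 after saline and a change of 1.71 with an SE of 0.20 (adjusted p = 2.48e-05). Trpc4ap, a subunit of ubiquitin ligases, had the largest fall, from 7.99, 8.05 and 7.82 to 6.43, 6.33 and 5.45, a change of -1.89 (SE 0.34, adjusted p = 0.00156). Neither pair of groups overlapped, and both genes moved the same way in the wild type, by 1.12 and -1.26. The knockout DEN arrays read 8.61, 8.59 and 8.17 for Hectd2os and 8.09, 7.93 and 6.99 for Trpc4ap, and both differed between saline and DEN, by 1.24 (adjusted p = 0.000485) and -1.60 (adjusted p = 0.00419).

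Ezr, which links the actin cortex to the membrane, rose from 6.35, 6.48 and 5.73 to 7.51, 7.57 and 7.78, by 1.43, while it read 5.97, 4.94 and 5.31 on the DEN arrays, lower than saline by 2.21 (adjusted p = 1.42e-05). Eif2a, a translation initiation factor, rose from 7.78, 7.77 and 8.24 to 9.36, 9.40 and 9.14, by 1.37, and differed from DEN by 1.23 (adjusted p = 1.16e-05). Ube2w, a ubiquitin-conjugating enzyme, rose by 1.41, the Src-family kinase Yes1 by 1.19, Tm7sf3, a membrane protein, by 1.13, and Smad7, an inhibitor of TGF-beta signalling, by 1.23. For these 4 genes the knockout DEN minus 4-week change was 0.17, 0.24, -0.13 and -0.52.

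Among the falls, Preb, a transcription factor and exchange factor of the secretory pathway, read 10.49, 10.14 and 10.08 at 4 weeks and 9.19, 8.88 and 9.15 after saline and fell by 1.16 (adjusted p = 0.000247). The splicing factor Sf1 fell by 1.04 and Mybbp1a, a nucleolar protein, by 0.92. Each of these 3 had another probe set that was called in the same direction, at -0.53, -0.48 and -0.82, while an _x_at probe set of Sf1 changed by 1.08 (adjusted p = 0.066). Scyl2, of clathrin traffic, fell by 1.29, the ribosomal protein gene Rpl27a by 1.26, the complex II assembly factor Sdhaf1 by 0.87 and the tubulin deacetylase Hdac6 by 0.86. Rpl27a belongs to a family with many near-identical pseudogenes, which its probes may also read, and for Scyl2 the other tested probe sets changed by 0.31 and -0.05. Of the 30 genes, 26 kept their calls without each array in turn. Zdhhc12, Ablim3, Lama5 and Pvr did not: their adjusted p-values reached 0.0907 without saline replicate 2 for Zdhhc12, and 0.0713, 0.0546 and 0.122 without 4-week replicate 1 for the others.

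**Figure D3:**
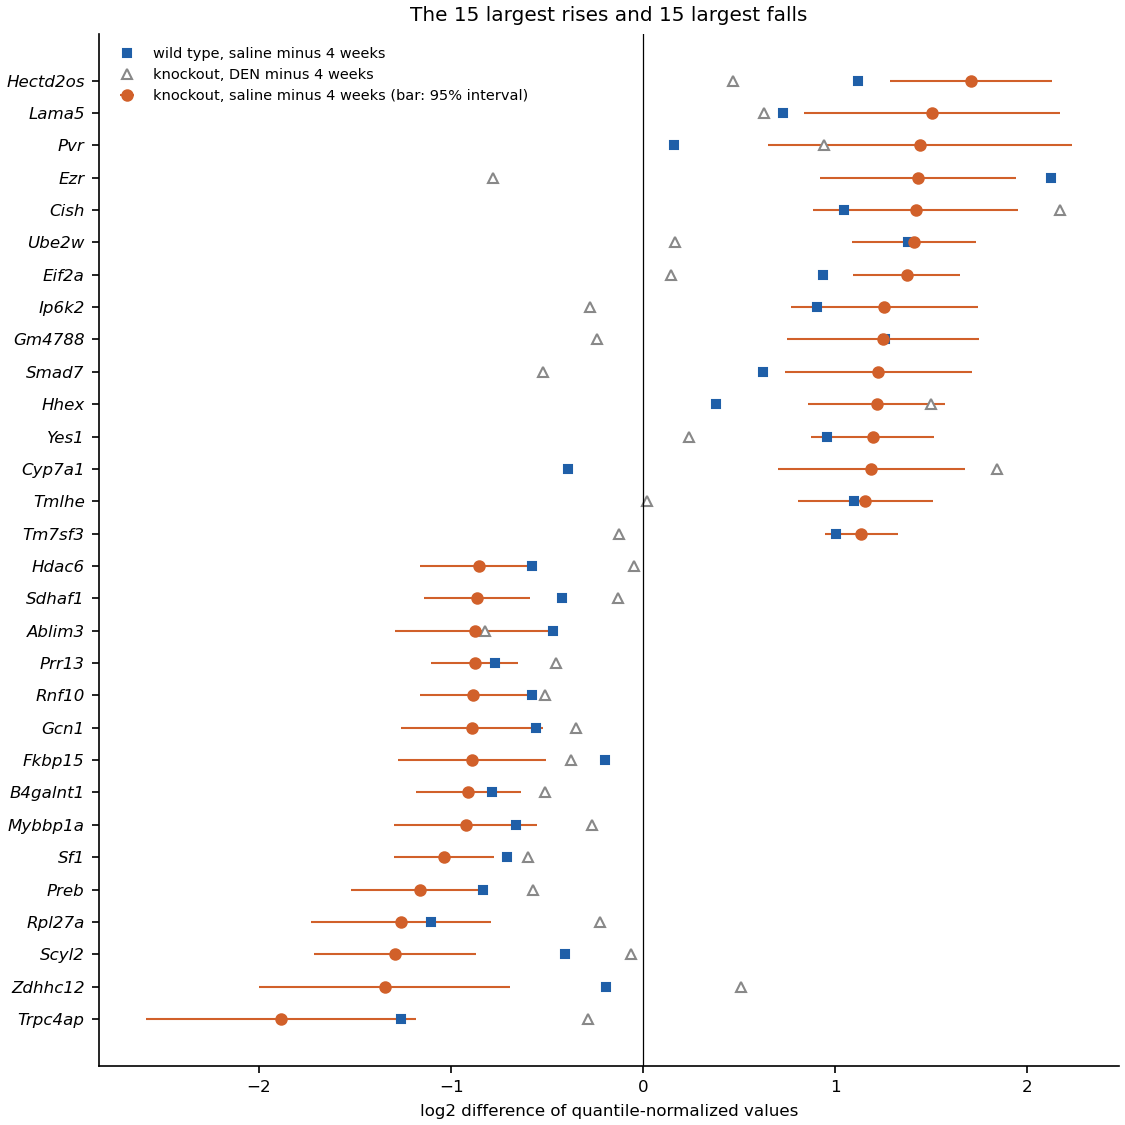
The 15 largest rises and 15 largest falls of the knockout comparison, as log2 differences; orange points with bars are the knockout saline minus 4-week change with its 95% interval, blue squares the wild-type saline minus 4-week change, and grey triangles the knockout DEN minus 4-week change, which shares the 4-week knockout arrays. Ezr, at 1.43 in the knockout and 2.12 in the wild type, has a triangle at -0.78.

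The kind of probe set made a difference to how often a call was made. Probe sets whose names end in _x_at hold probes that match more than 1 transcript family, those ending in _s_at match several transcripts and those ending in _a_at several forms of 1 gene. Of 1775 tested _x_at probe sets 18.7% were called, 225 higher and 107 lower, against 5.2% of 20226 plain _at probe sets, 10.9% of _a_at and 11.7% of _s_at. Among the brightest 20% of all probe sets the shares were 31.3% for _x_at and 14.8% for _at. In the wild-type comparison, where the saline arrays have the same compressed range, they were 14.1% for _x_at and 3.83% for _at. In the knockout DEN against 4-week comparison, where the arrays have one signal range, they were 7.77% for _x_at and 7.38% for _at. The DEN arrays also had a lower Gapdh ratio than the 4-week arrays, at 0.907 to 0.937 against 1.35 to 1.7. Their Actb ratio was 2.819 to 3.05 against 3.996 to 5.046. What made the _x_at shares differ between comparisons was not tested. Of the genes described, Ezr, Eif2a, Tm7sf3, Smad7, Preb, Rps9, Mup3, S100a10, Cfl1, Krt8, C1qb, H2-K1 and Hmgn1 are read here by _x_at probe sets. The other probe sets of Ezr, Eif2a and Smad7 changed by -0.07, 0.16 and -0.34, and the 3 others of Tm7sf3 by 0.09 to 0.43, none of them called.

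**Figure D4:**
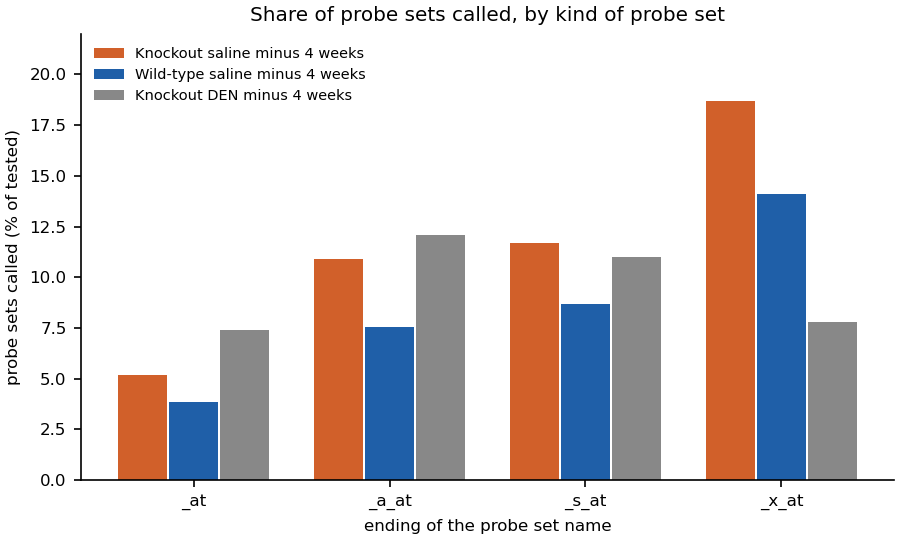
Share of tested probe sets called, in percent, by the ending of the probe set name, for the knockout and wild-type saline minus 4-week comparisons and the knockout DEN minus 4-week comparison. The _x_at bars stand at 18.7% and 14.1% in the saline comparisons and at 7.77% with DEN.

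Other probe sets of the called genes were seldom called themselves. The 1071 called genes had 1253 other tested probe sets, of which 58.0% had the same sign and 7.9% were called in the same direction, against 6.89% of all 9782 such probe sets called in either direction. In the knockout DEN against 4-week comparison the corresponding shares were 73.2% and 15.3%, against 6.76%. The cause of this difference was not tested. Rps9, of the small ribosomal subunit, rose by 0.96 on 1 probe set (adjusted p = 2.41e-06) and changed by 0.17 on another bright one (adjusted p = 0.355). It was the 1 called of the 25 measured genes on the ribosomal protein list, which does not hold Rpl27a, called lower as given above. On that list 15 genes fell with deposited values and 17 with centred medians. Hspa4, a cytosolic HSP110 chaperone, rose by 0.96 on 1 probe set and fell by 0.54 on another (adjusted p = 0.000185 and 0.00255), so these probe sets of Hspa4 disagree in direction.

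The same contrast in the wild type, which uses none of these 6 arrays, gave 1423 called probe sets (5.27%), and 795 called genes (6.16%). Of the probe sets called in the knockout, 842 were called in the wild type as well, all in the same direction, which is 43.3% of the knockout calls and 59.2% of the wild-type calls; 497 rose and 345 fell in both. Of all knockout calls 97.1% had the same sign in the wild type, and the changes correlated at r = 0.55 across the 27022 probe sets, which are not independent replicates. The wild-type and knockout saline arrays share the low control signals and the compressed range, so their part in this overlap was not tested. Of the 15 largest rises 10 rose in the wild type and of the 15 largest falls 9 fell. The largest wild-type change among these 30 was that of Ezr, at 2.12.

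The difference between the genotypes' changes was called for 1 probe set of 27022 (0.0037%) by limma, that of Scara5, and 1002 had an unadjusted p under 0.05. Scara5, a ferritin receptor, read 9.02, 9.19 and 9.0 on the 4-week and 8.60, 8.34 and 8.38 on the saline arrays of the knockout, and 5.55, 5.75 and 5.72 and 7.85, 7.23 and 7.90 in the wild type. It rose in the wild type by 1.99 and changed by -0.63 in the knockout (adjusted p = 0.171), a difference of -2.62 (SE 0.38, adjusted p = 0.0212). The 4-week wild-type arrays were the low group, and the knockout was high in both groups. The call was lost when any of 11 of the 12 arrays was left out, with adjusted p-values up to 0.131, and kept without wild-type saline replicate 2 (0.0113); a second, dim Scara5 probe set differed by 0.51 and was not called. Tyrobp came next, with a difference of 1.22 (adjusted p = 0.204): its wild-type values were 8.68, 8.46 and 8.55 at 4 weeks and 8.37, 8.37 and 7.94 after saline, against the rise in the knockout given above.

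**Figure D5:**
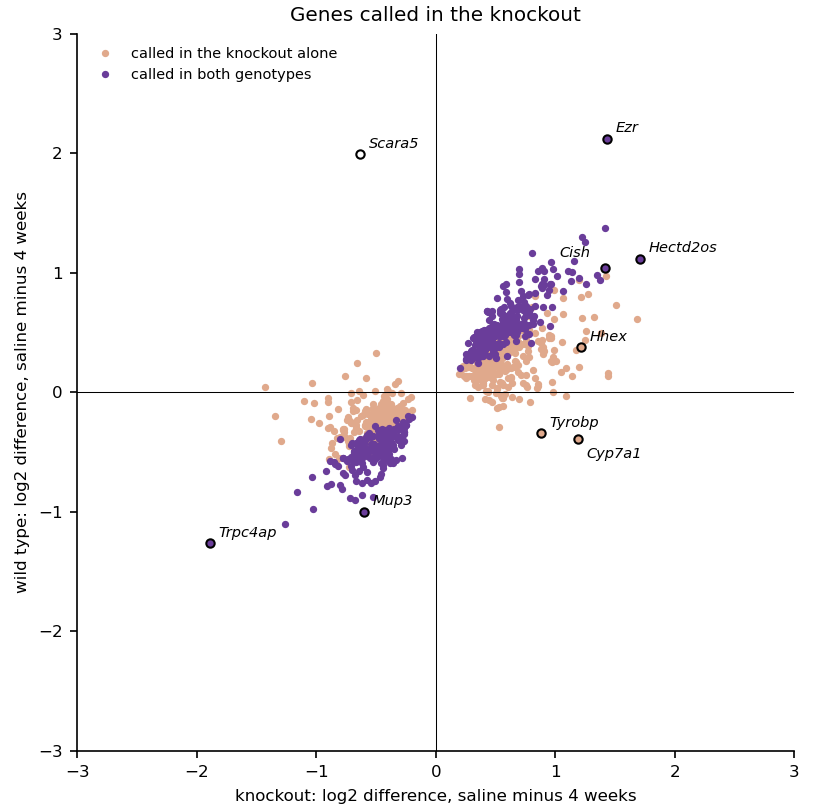
Change from 4 weeks to saline in the knockout (horizontal) and in the wild type (vertical), both log2, for the 1071 genes called in the knockout; purple genes, 468 of them, were called in both genotypes all with the same sign, and Scara5, circled, was not called in the knockout. Cyp7a1 and Tyrobp lie below the horizontal line, at -0.39 and -0.34 in the wild type.

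The Hmgn1 probe set of highest signal read 12.67, 12.63 and 12.61 at 4 weeks and 12.67, 12.60 and 12.53 after saline in the knockout, with overlap of the groups and a change of -0.04 (adjusted p = 0.855). With the deposited values the change was -0.37 (adjusted p = 0.0219), and its other probe sets changed by 0.10 and 0.12. How the gene was disrupted is not stated, so these probe sets do not check the genotype label. Of the 7 measured HMG family genes, Hmg20b was called lower, at -0.72 (adjusted p = 0.0467), and was picked after its value was seen. Its call was lost without any 1 of the 6 arrays, with adjusted p-values from 0.0752 to 0.157.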

How the data were processed

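RNA of 18 mouse livers (6 groups of 3) was measured on an Affymetrix array of 45101 probe sets, 64 of them controls. The deposited values are linear intensities that the authors made with MAS5, per the submitters' processing notes, which give no version; every array has the same mean after trimming 2% at each end. Detection calls and raw images were not used here, and the number of arrays limits the precision.

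With limma 3.58.1 in R 4.3.3, 16 was added, log2 was taken and the 18 arrays were quantile normalized over non-control probe sets. The 40% with the lowest mean were left out, and 6 group means were fitted with an intensity trend. The test was also run on simulated data with independent noise for each probe set. The simulated arrays held no compressed range, so that run does not bear on the array difference of the saline groups. Of the probe sets, 34945 named 1 gene, 932 several and 9160 none.

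Described genes were the 15 largest rises and falls and up to 4 genes a list, called without overlap and with the same sign on both scales at a mean of at least 7 in the higher group; up to 5 differences of each sign between genotypes; and Hmgn1. Exceptions are stated. Members, lists and tests were chosen with earlier results of these data known. The contrast of saline with DEN and the setting without the 4-week arrays of highest Gapdh ratio were added after seeing the data. Alternatives covered normalization, the number added, the filter, the variance model, array weights, a replicate block, the arrays fitted, probe set kinds, a Gapdh ratio covariate and each array left out. Deviations of arrays with the same replicate number correlated at 0.070, 0.042 and 0.0043, so the numbers were not taken as pairs.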

Additional observations from a re-analysis of the deposited data

Results flagged for a closer look

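The saline minus 4-week change of Scara5 was lower in the knockout than in the wild type by -2.62 on the log2 scale (limma adjusted p = 0.0212), the difference between genotypes being tested as an interaction over all 27022 probe sets. When 1 of the 12 arrays was left out, the difference lay between -2.83 and -2.50, and its adjusted p between 0.0113 and 0.131. No other probe set passed this test.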

How the results depend on the processing

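Against 1946 calls by limma (1059 rises, 887 falls), there were 1208 (686 and 522) without the intensity trend, 3217 (1688 and 1529) with array quality weights and 1170 (655 and 515) without the 4-week array of highest Gapdh ratio in each genotype, a setting chosen after seeing the data. Array medians centred gave 664 rises and 2054 falls, and 671 rises were left without _x_at and _s_at probe sets, where fewer probe sets were tested. Leaving out each array in turn gave 910 to 1422 calls, 527 to 838 rises and 383 to 584 falls, with fewer arrays fitted. With the 6 compared arrays normalized and fitted alone there were 2754 calls (1430 rises and 1324 falls). With the replicate number as a block there were 1834 calls, and among the called genes chosen by the rule Serpina3n and Ptprb lost theirs. The cause of the other changes was not tested. The difference between genotypes had 0 calls with 64 added, without the trend, with the replicate block or without the highest Gapdh arrays, 3 with array weights or with the compared groups alone, and 0 to 1 when an array was left out.

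Of 90 called genes chosen by the rule, 47 kept their call under every alternative in which their probe set was tested, and none changed sign. Genes picked after their values were seen are not among the 90, and of these Apoa1 changed sign with deposited values. Of 1779 values 252 missed the threshold. With deposited values all 90 kept their call because the rule that chose them required it. The setting without _x_at and _s_at probe sets covered 69 of them. Hmgn1, not called, turned to 0.018 with the Gapdh ratio as a covariate and lay between -0.073 and 0.0011 with each array left out. Dim probe sets were called less often: 1.07% of the dimmest 20% against 18.8% of the brightest 20%.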

Other observations

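Adipoq, an adipocyte hormone, had a deposited intensity of 463 on knockout saline replicate 2 and of 8.47 to 17.3 on the other 5 arrays of the comparison. It was picked after its values were seen, and its part in any result was not tested.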
